A study of Homo sapiens with 6 samples.

Results

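Genes for histone methyltransferases and demethylases were examined in RNA-seq of HEK293T cells, which derive from human embryonic kidney and express the large T antigen of SV40. Members were chosen by symbol alone, as KDM2 to KDM8, KMT2, KMT5, SETD, NSD, SMYD, PRDM and PRMT genes together with DOT1L, ASH1L and ASH2L, which gave 67 of the 47470 genes listed in the count tables. The 6 libraries were 3 from untreated HEK293T cells and 3 from HEK293T cells kept for 1 day in medium with 1 mM VPA (valproic acid), which inhibits histone deacetylases. Both groups were of the same unmodified line, and all 6 libraries were prepared from total RNA with a strand-specific mRNA protocol. The labels name no separate cultures, so that p-values measure the spread between these libraries, which may be technical. In bulk RNA, fewer cells of a type and less RNA per cell cannot be told apart.

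Histone methylation is written by SET domain enzymes on lysine, by DOT1L on lysine 79 of histone H3 without a SET domain, and by PRMT enzymes on arginine. It is removed from lysine by demethylases, of which the KDM2 to KDM8 enzymes use a Jumonji C domain, iron and oxoglutarate. Methylation of histone H3 lysine 4 (H3K4) marks promoters and enhancers, H3K36 and H3K79 methylation mark transcribed gene bodies, and H4K20 methylation is tied to chromosome compaction and replication. Many SETD, SMYD and PRDM genes encode proteins that act on other targets or bind DNA without a known enzyme activity.

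Counts on genes totalled 18622267 to 18828495 per library. Within a group the libraries differed by more than sampling noise (chi-square per gene of 1.62 to 4.82), so each was counted as 1 replicate. More genes had at least 1 count in the VPA-treated libraries (22279 to 22425) than in the untreated ones (20719 to 20916). All 10 genes fixed as markers of HEK293 lines had counts in all libraries. Their levels were not steady, and most were higher in VPA-treated libraries and some lower. VIM had 10168 to 10412 counts untreated and 9082 to 9529 treated. Among markers of other cell types, PTPRC, CD3E, LYZ, HBB, PECAM1, CDH5, ALB and APOA1 had 0 to 5 counts per library. The fibroblast genes were higher in VPA-treated libraries, LUM with 24 to 25 counts untreated and 250 to 256 treated, DCN with 0 to 3 and 40 to 47, and PDGFRA with 28 to 38 and 63 to 84. VWF of endothelium had 0 to 3 and 13 to 20 counts. Their part in the results on methyltransferases and demethylases was not tested. All 1610 listed genes of chromosomes X and Y had 0 counts in all 6 libraries, so KDM5C, KDM6A and KDM5D could not be measured.

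Of the 67 genes, 59 passed the filter on low counts and were tested. Their normalised counts (scaled by TMM, a trimmed mean of ratios between libraries, to the mean library) averaged from 9.59 for PRDM12 to 6529 for PRMT1. Under TMM scaling 5 of the 59 rose in VPA-treated cells and 38 fell at an adjusted p under 0.05. When the libraries were scaled to ribosomal protein genes, 23 rose and 9 fell, beside 61.2% and 5.45% of all tested genes. With TMM, the called shares were 8.47% higher and 64.4% lower, beside 32.9% and 30% of all 15298 tested genes. In either direction 72.9% of the 59 changed, beside 62.9% of all genes. The median log2 fold change was -0.18, with 0.0058 over all tested genes. Most of these changes were small. At the study's threshold, which adds a log2 fold change of 1 or more in either direction, 2 genes were up-regulated (PRDM1 and PRDM8), beside 12% of all genes. At that size 0 were down-regulated by edgeR and 0 by DESeq2, beside 0.503% of all genes by edgeR, and 0 also at an unadjusted p under 0.05, since the lowest log2 fold change was -0.64. Changes of at least 1.5 times were called for 4 (PRDM1, PRDM8, SETD6 and SETD9), beside 21.7%. All 3 VPA-treated libraries lay below all 3 untreated ones for 39 genes and above them for 7, where the shares over all genes were 31% and 34.8%.

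The direction depended on how the libraries were scaled, while the distance from other genes did not. The median log2 fold change of the 59 genes was -0.18 with TMM, -0.19 with DESeq2 size factors, -0.11 with the upper quartile, -0.044 for library totals and 0.099 for ribosomal protein genes. The same choices gave medians over all genes of 0.0058, -0.0081, 0.071, 0.14 and 0.28. Under each of these 5 scalings the members' median lay 0.18 below that of all genes, and 49 of the 59 lay below it, since a scaling moves all genes by the same amount. With ribosomal protein genes as the scaling 61.2% of all genes were higher and 5.45% lower, and with library totals 43.9% and 15.5%. Scaling to ribosomal protein genes takes these genes as unchanged between the groups, which was not tested. It shifts the median over all genes by 0.27 from that with TMM. Called under all 5 scalings were 9 genes that fell (SETD1B, KMT5A, SETD6, SETD9, SMYD2, PRDM10, PRMT1, PRMT5 and KDM4A) and 5 that rose (SMYD3, PRDM1, PRDM8, PRDM16 and KDM5B). Of the 38 genes called lower with TMM, 16 had a log2 fold change above 0 with ribosomal protein genes.

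**Figure D1:**
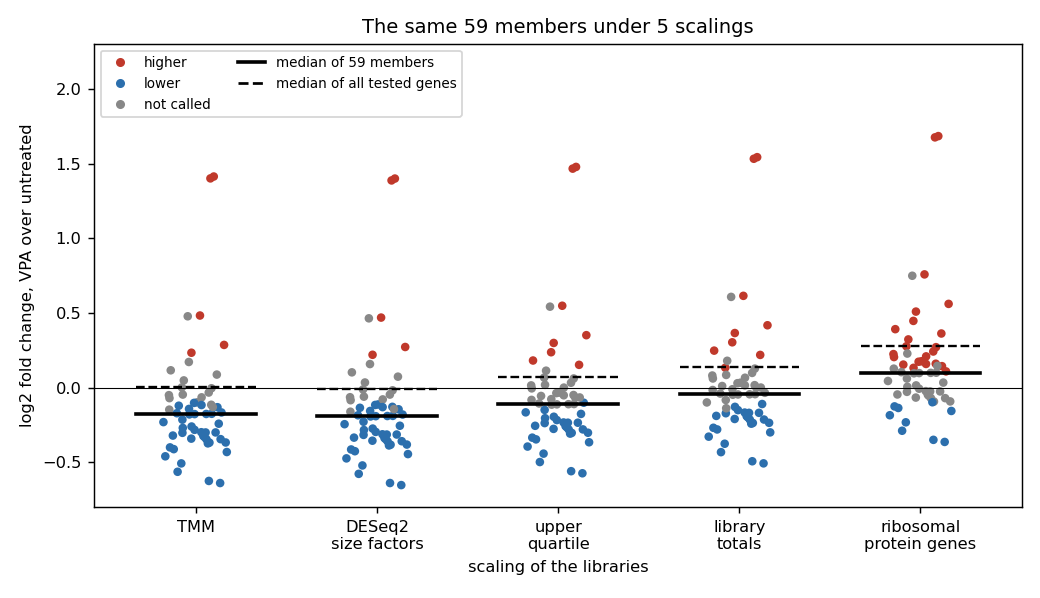
Log2 fold change of the 59 genes (dots, y axis) under 5 scalings of the libraries (x axis), with their median as a solid line and that of all 15298 tested genes as a dashed line. From TMM to ribosomal protein genes the dots and both lines move up together, and the solid line stays 0.18 below the dashed one.

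Most of the genes are well expressed, and well-expressed genes as a whole fell more often. In the upper class of 3 equal classes of mean level (889.73 normalised counts and above), 27 of 35 members fell and 1 rose, where 55.9% and 15.6% of all genes of that class did. The median there was -0.24 for members and -0.14 for all genes. In the middle class (from 160.11), 10 of 18 fell and 2 rose, beside 26.4% and 37.7%, with medians of -0.17 and 0.039. In the lower class 1 of 6 fell and 2 rose, beside 7.76% and 45.5%, with medians of 0.22 and 0.37. These counts are for TMM, and no test was made of the difference from other genes. The counts called in each role group below are to be read beside these shares and those over all genes.

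**Figure D2:**
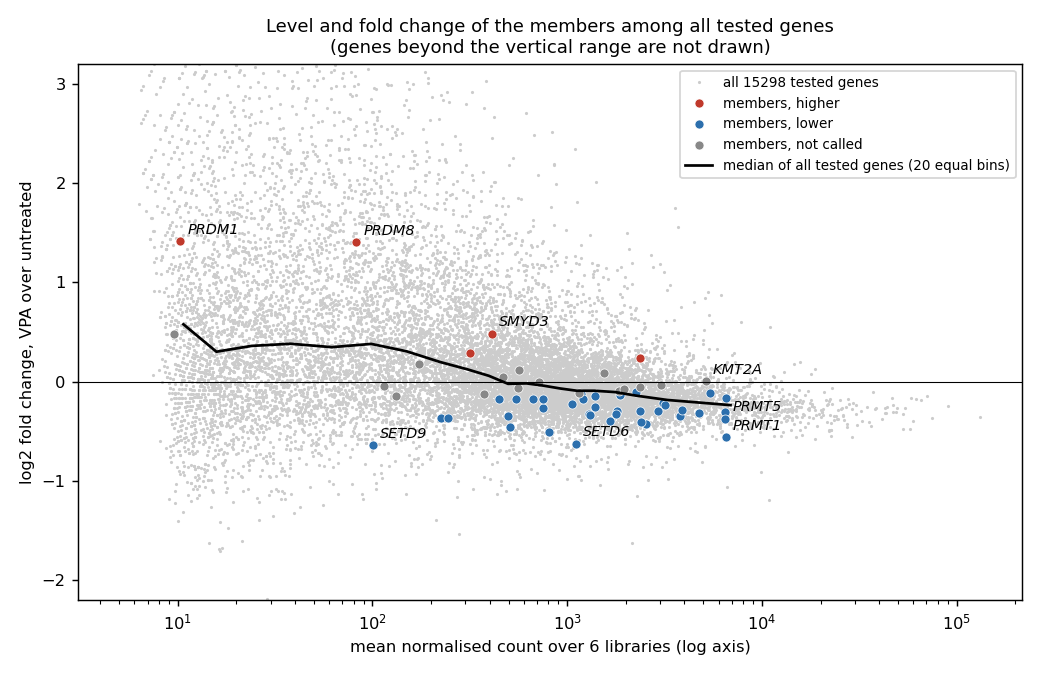
Mean normalised count over 6 libraries (x axis, log scale) against log2 fold change with TMM (y axis) for all tested genes and the 59 histone methyltransferase and demethylase genes. In the class of highest level the median was -0.24 for these genes and -0.14 for all genes, and another scaling moves both by the same amount.

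The group of H3K4 methyltransferases holds the KMT2 and SETD1 genes, ASH2L and SETD7. ASH2L is a subunit that the complexes of KMT2A to KMT2D and of the SETD1 enzymes share, and SETD7 places a single methyl group. KMT2E was grouped by its symbol and not by a shown H3K4 methyltransferase activity. Of 9 tested, 7 fell with TMM and 2 (KMT2A and KMT2C) did not pass the test. All 9 are in the upper class of level, where 55.9% of all genes fell at a median of -0.14. The median log2 fold change of the group was -0.23 with TMM and 0.045 with ribosomal protein genes (0.28 over all genes). SETD1A and SETD1B, the catalytic subunits of the complexes that place most H3K4 trimethylation at promoters, had the smallest adjusted p of the group. SETD1B (chromosome 12, 121790155 to 121832656) had normalised counts of 1994, 1821 and 1828 in untreated cells and 1486, 1429.5 and 1363 in VPA-treated cells. The groups did not overlap, and SETD1B fell by 24.2% (log2 fold change -0.40 ± 0.049 SE, adjusted p = 3.8e-07, edgeR). It lies over LINC01089 and RHOF on the other strand. SETD1A (chromosome 16, 30957754 to 30984664) had 4515, 4135 and 4154 untreated and 3420.1, 3377 and 3289.7 treated. Every treated library was lower, and SETD1A fell by 21.2% with TMM (-0.34 ± 0.043, adjusted p = 4.1e-07, edgeR), and with ribosomal protein genes SETD1A was at -0.070 and not called. Per kilobase of exon SETD1A was the highest of the group, at 611 normalised counts in untreated cells, followed by KMT2D at 281.

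Among the KMT2 genes, KMT2B and KMT2D fell by 18.7% and 18.9% with TMM (log2 fold change -0.30 ± 0.050 and -0.30 ± 0.044, adjusted p = 2.35e-05 and 4.4e-06, edgeR), with -0.025 and -0.028 under ribosomal scaling. KMT2E, which lies over SRPK2 on the other strand, was at -0.23 (adjusted p = 0.0014, edgeR). KMT2A, the founding mixed lineage leukaemia gene, had 5042, 5029.6 and 5325 untreated and 5146, 5193 and 5082 treated. These values overlapped, with a log2 fold change of 0.0023 and an adjusted p of 0.97 (edgeR), -0.022 by DESeq2, and 0.28 with ribosomal protein genes, where it was called. KMT2C overlapped as well (-0.032, adjusted p = 0.53, edgeR). Since both values of a ratio come from 1 library, the ratio of KMT2D to KMT2A counts does not depend on scaling. It was 1.499, 1.403 and 1.282 in untreated and 1.174, 1.109 and 1.1 in VPA-treated libraries. The pairs of this and the later ratios were chosen after their values were seen, so that separate groups are no independent result. SETD7 fell by 13.8% with TMM and was at 0.061 with ribosomal protein genes. ASH2L was at -0.12 with an adjusted p of 0.042 in edgeR and 0.055 in DESeq2, and its call was lost in 5 of 6 fits that left out 1 library (all but that without untreated replicate 1, adjusted p from 0.062 to 0.14).

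The H3K36 methyltransferases include SETD2, which places H3K36 trimethylation with the elongating polymerase, the dimethylating NSD enzymes and ASH1L. Of 5 tested, 4 fell with TMM and ASH1L did not pass. All 5 are in the upper class of level, where 55.9% of all genes fell at a median of -0.14. The group median was -0.12 with TMM, 0.016 with library totals and 0.16 with ribosomal protein genes (0.0058, 0.14 and 0.28 over all genes). SETD2 had 3464, 3367 and 3519.8 normalised counts untreated and 2795, 2975 and 2991 treated. No library overlapped, and SETD2 fell by 15.4% with TMM (-0.24 ± 0.041, adjusted p = 3.2e-05, edgeR), against 0.034 with ribosomal protein genes. NSD1, the highest of the group per kilobase (316 in untreated cells), had 6838, 6943 and 6891 untreated and 6139, 6217 and 6075 treated. It fell by 10.8% with TMM (-0.17 ± 0.038, adjusted p = 0.00067, edgeR) and was higher, at 0.11, under ribosomal scaling. NSD2 and NSD3 were at -0.12 and -0.10 with TMM (adjusted p = 0.012 and 0.042, edgeR) and at 0.16 and 0.17 with ribosomal protein genes, also called. The NSD2 call was lost without VPA replicate 3 (adjusted p = 0.054, edgeR), and that of NSD3 without untreated replicate 2 or 3 or VPA replicate 1 or 2 (adjusted p from 0.088 to 0.12, edgeR). ASH1L had overlapping groups, at -0.050 with TMM.

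DOT1L is the H3K79 methyltransferase, KMT5A places the single methyl group on H4K20, and KMT5B and KMT5C add further ones. Of these 4, 3 fell with TMM and KMT5C did not pass, beside 30% of all genes that fell. DOT1L and KMT5A are in the upper class of level, where 55.9% of all genes fell. KMT5B and KMT5C are in the middle class, where 26.4% fell. The median was -0.28 with TMM and -0.0093 with ribosomal protein genes (0.28 over all genes). KMT5A (chromosome 12, 123384132 to 123409353) had normalised counts of 2940.2, 2919 and 2893 in untreated cells and 2163, 2207 and 2126 in VPA-treated cells. All treated libraries lay below the untreated ones, and neither group varied much. It lies over RILPL2 on the other strand. KMT5A fell by 25.8% (-0.43 ± 0.040, adjusted p = 6.5e-09, edgeR) and was called lower under all 5 scalings. Per kilobase of exon it was the highest of the group, at 692 untreated and 514 treated. KMT5C, in contrast, had 503, 447 and 434 untreated and 540.5, 458 and 434 treated, with overlapping groups and an adjusted p of 0.61 (edgeR). Its log2 fold change was 0.049 and ranged from -0.050 to 0.11 when 1 library was left out, and it was called higher, at 0.32, with ribosomal protein genes. The ratio of KMT5A to KMT5C counts was 5.844, 6.532 and 6.673 in untreated libraries and 4.002, 4.823 and 4.903 in VPA-treated ones. The groups did not overlap, but this pair was chosen after its values were seen. DOT1L, which overlaps DOT1L-AS1 on the other strand, fell by 18.7% with TMM (-0.30, adjusted p = 2.3e-05, edgeR) and was at -0.025 with ribosomal protein genes. KMT5B fell by 17% with TMM and was at 0.0062 there.

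The other SET domain genes, some of which encode methyltransferases of proteins other than histones, held both the strongest decreases of the whole set and 1 increase. Of 9 tested, 8 fell with TMM and SMYD3 rose, beside 30% and 32.9% of all genes. SETD3, SETD5, SETD6 and SMYD5 are in the upper class of level, where 55.9% of all genes fell. SETD9 is in the lower class, where 7.76% fell, and the others are in the middle class, where 26.4% fell. The median was -0.32 with TMM and -0.045 with ribosomal protein genes (0.28 over all genes). The stretches before annotated transcription starts are shown for the genes of largest change with at least 50 normalised counts, in lower case with GC boxes (GGGCGG on either strand) in capitals. They are RefSeq sequences of GRCh38.p14, 5′ to 3′ on the strand of the gene, with annotated exon bases left out. For SETD6 the window was almost all exon, so none is shown. The stretch of SMYD3 is chr1:246507313-246507529 on the minus strand, which ends 33 bases before the start. Those of SETD9 are chr5:56909010-56909259, which ends just before the first base of the gene, and chr5:56909807-56910056, before a start further into the gene, both on the plus strand.
SMYD3: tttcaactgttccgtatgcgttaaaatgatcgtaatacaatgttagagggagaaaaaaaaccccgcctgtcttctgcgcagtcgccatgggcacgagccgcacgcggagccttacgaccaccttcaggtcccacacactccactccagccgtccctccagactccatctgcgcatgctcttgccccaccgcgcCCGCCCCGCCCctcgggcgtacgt
SETD9, first start: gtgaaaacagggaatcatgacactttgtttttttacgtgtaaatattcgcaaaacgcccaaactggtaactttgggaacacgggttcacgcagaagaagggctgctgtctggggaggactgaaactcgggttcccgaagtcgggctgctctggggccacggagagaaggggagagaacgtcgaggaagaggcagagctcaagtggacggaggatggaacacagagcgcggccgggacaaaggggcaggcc
SETD9, inner start: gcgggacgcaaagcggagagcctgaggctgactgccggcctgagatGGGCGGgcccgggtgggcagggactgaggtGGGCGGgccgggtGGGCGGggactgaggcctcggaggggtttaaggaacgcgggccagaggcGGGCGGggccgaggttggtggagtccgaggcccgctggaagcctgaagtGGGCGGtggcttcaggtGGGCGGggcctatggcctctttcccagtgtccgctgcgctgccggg
The SMYD3 stretch shown has 2 GC boxes that share 1 base. A second SMYD3 stretch, before a start inside the gene (chr1:245988563-245988801, not shown), has 0 GC boxes and 5 CCAAT boxes. The inner start of SETD9 has 6 and its first start has none. Another SETD9 window was all exon, and one more almost coincided with that of the inner start.

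SMYD3, a lysine methyltransferase of histones and of the kinase MAP3K2, had normalised counts of 329, 351 and 351 in untreated and 468, 472 and 501 in VPA-treated cells. Every treated library was above every untreated one, and SMYD3 rose by 39.8% (log2 fold change 0.48 ± 0.067, adjusted p = 1.9e-06, edgeR). It lies over SMYD3-AS1 on the other strand. SMYD2, a lysine methyltransferase of p53 and other proteins, moved the other way, with 936, 985 and 927 untreated and 633, 689 and 683 treated. SMYD2 fell by 29.6% (-0.51 ± 0.055, adjusted p = 6e-08, edgeR). The ratio of SMYD3 to SMYD2 counts was 0.352, 0.356 and 0.378 in untreated libraries and 0.738, 0.685 and 0.734 in VPA-treated ones. The means of this ratio were 0.362 ± 0.0142 and 0.719 ± 0.0293 (SD, n = 3 each).

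SETD6, a monomethyltransferase of the NF-κB subunit RELA, had 1275, 1330.4 and 1411 normalised counts untreated and 859, 890.1 and 858 treated. The groups lay far apart, and SETD6 fell by 35.1% (-0.62 ± 0.051, adjusted p = 8e-10, edgeR). SETD9 had 106, 129.8 and 132 untreated and 72.8, 74.2 and 89.0 treated. It fell by 35.7% without overlap (-0.64 ± 0.13, adjusted p = 2e-04, edgeR), the lowest fold change of the set at a mean of 101 normalised counts. SETD6 lies over CNOT1 and SETD9 over MIER3, so that reads of these pairs may not be separable if strand was not used in the counting. SETD5 (5223, 5389.7 and 5282 untreated; 4209.7, 4298 and 4224 treated) fell by 19.9% with TMM (-0.32 ± 0.038, adjusted p = 2.5e-07, edgeR) and was at -0.045 with ribosomal protein genes. SMYD5, the highest of the group per kilobase (426 untreated and 341 treated), fell by 20% with TMM (-0.32 ± 0.046, adjusted p = 3.4e-06, edgeR), and was at -0.047 with ribosomal protein genes.

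Smaller decreases were called for SMYD4, SETD4 and SETD3 with TMM, at -0.18, -0.18 and -0.14, where ribosomal protein genes gave 0.096, 0.098 and 0.13. SETD3, the actin histidine methyltransferase, had overlapping groups (1396, 1566 and 1429.8 untreated; 1239, 1412 and 1329 treated). Its adjusted p was 0.028 in edgeR and lost the call without untreated replicate 2 (0.17), VPA replicate 1 (0.15) or VPA replicate 3 (0.058). SETD4, at an adjusted p of 0.017 in edgeR, lost it without untreated replicate 2 (0.064) or VPA replicate 3 (0.057). SETD3 also lies over CCNK on the other strand.

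The PRDM genes encode zinc finger proteins with a PR domain, a relative of the SET domain that in most of them has no shown enzyme activity. Of 12 tested with TMM, 3 rose, 6 fell and 3 did not pass, beside 32.9% of all genes that rose and 30% that fell. The median was -0.16 with TMM and 0.12 with ribosomal protein genes (0.28 over all genes). PRDM8, a repressor known from the development of neurons, had the strongest increase among genes above 50 counts. Its promoter stretch, chr4:80185020-80185269 on the plus strand, ends just before the start of transcription and is shown in the same way, but holds none of the 6 motifs searched, so that no base is in capitals. The window of a second PRDM8 start was mostly exon and is not shown.
PRDM8: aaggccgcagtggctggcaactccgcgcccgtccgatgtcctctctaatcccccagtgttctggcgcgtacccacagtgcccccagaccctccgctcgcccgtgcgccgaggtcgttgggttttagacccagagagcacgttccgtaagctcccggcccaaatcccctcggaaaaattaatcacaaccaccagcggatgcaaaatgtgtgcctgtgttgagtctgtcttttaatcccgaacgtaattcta
PRDM8 had 46.6, 42.9 and 46.2 normalised counts in untreated cells and 101, 128 and 130.2 in VPA-treated cells. Each treated library was far above any untreated one, and PRDM8 rose by 164% (log2 fold change 1.40 ± 0.15, adjusted p = 3.3e-08, edgeR). It lies over PRDM8-AS1 on the other strand.

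PRDM1 (Blimp-1), the repressor of plasma cell differentiation, had the same fold change at a level near the limit of the filter. Its raw counts summed to 63 over the 6 libraries, and its normalised counts were 9.32, 4.19 and 3.15 untreated and 14.4, 20.2 and 10.5 treated. The groups did not overlap, but the nearest libraries were close, at 9.32 and 10.5 (log2 fold change 1.41 ± 0.41, adjusted p = 0.0051 in edgeR and 0.0496 in DESeq2). PRDM1 was not tested where at least 10 counts were required in every library. PRDM16, a factor of brown fat and blood stem cells, had 285, 269 and 302 untreated and 368, 356 and 319.8 treated. It rose by 22% without overlap (0.29 ± 0.078, adjusted p = 0.0031 in edgeR and 0.039 in DESeq2).

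PRDM10, with 588, 608 and 565 normalised counts untreated and 444, 407 and 431 treated, fell by 27.2% (-0.46 ± 0.063, adjusted p = 1.6e-06, edgeR), under all 5 scalings. PRDM10 lies over PRDM10-DT on the other strand. PRDM4, the highest of the group per kilobase (415 untreated), had 1882, 2037 and 2028 untreated and 1579, 1596 and 1558 treated. It fell by 20.4% with TMM (-0.33 ± 0.045, adjusted p = 1.8e-06, edgeR) and was at -0.054 with ribosomal protein genes. PRDM11 and PRDM15 fell with TMM, at -0.37 and -0.34, and were at -0.093 and -0.070 with ribosomal protein genes, not called. PRDM2, first known as a partner of the retinoblastoma protein, and PRDM6, a factor of smooth muscle, were called lower with TMM at -0.17 and -0.17 and were at 0.10 and 0.10 with ribosomal protein genes. The groups of PRDM6 overlapped, its adjusted p was 0.035 in edgeR and 0.079 in DESeq2, and its call was lost in 5 of 6 fits without 1 library (all but that without untreated replicate 2, adjusted p from 0.054 to 0.14). PRDM12 and PRDM13 were among those that did not pass, with log2 fold changes of 0.48 and -0.15, that of PRDM12 from 7.99 to 11.2 normalised counts on average.

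**Figure D3:**
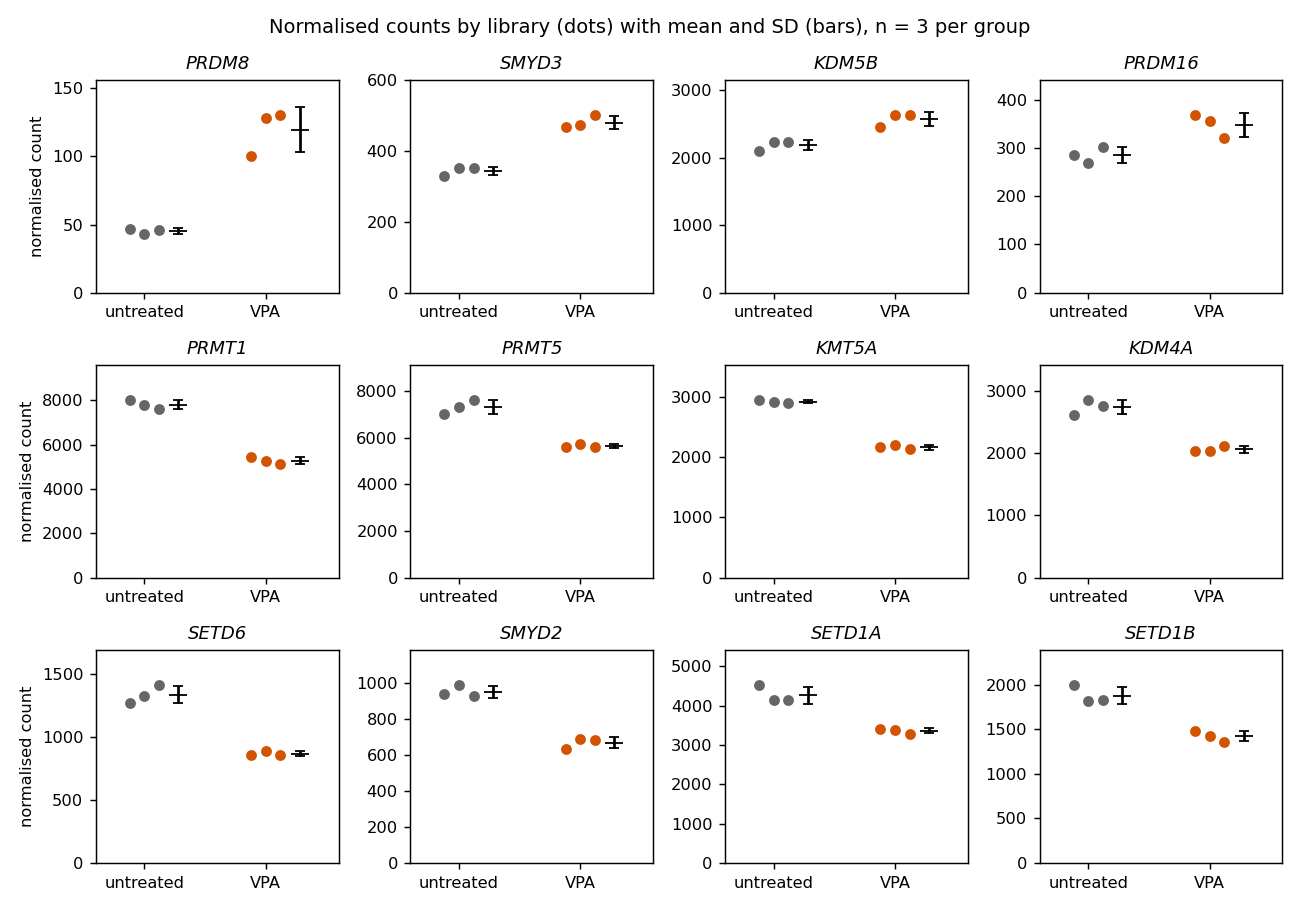
Normalised counts (y axis, from 0) of 12 genes in the 3 untreated and 3 VPA-treated libraries (x axis), 1 dot per library, with the mean and SD beside them. The treated dots lie above the untreated ones in PRDM8, SMYD3, KDM5B and PRDM16 and below them in the other 8 genes, under TMM scaling, and with ribosomal protein genes SETD1A is no longer called.

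The arginine methyltransferases were led by PRMT5 and PRMT1, the main enzymes of symmetric and of asymmetric dimethylarginine. Of 7 tested, 5 fell with TMM and 2 (PRMT6 and PRMT9) did not pass, beside 30% of all genes that fell. All but PRMT9 are in the upper class of level, where 55.9% of all genes fell. The median was -0.18 with TMM and 0.099 with ribosomal protein genes (0.28 over all genes). PRMT1 (chromosome 19, 49676153 to 49688447) had 7989, 7776 and 7593 normalised counts in untreated cells and 5442, 5266 and 5109.8 in VPA-treated cells. Its highest treated library was far below its lowest untreated one. PRMT1 fell by 32.3% (-0.56 ± 0.040, adjusted p = 9.2e-11, edgeR), with the smallest adjusted p of the 59 genes. PRMT5 (chromosome 14, 22920529 to 22929376) had 7038, 7312 and 7605 untreated and 5595, 5752 and 5614 treated. It fell by 22.7% (-0.37 ± 0.041, adjusted p = 6.4e-08, edgeR), and lies over PRMT5-AS1 on the other strand. Per kilobase of exon PRMT5 went from 2234 to 1726 and PRMT1 from 1623 to 1099, the highest levels of the 59 genes.

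PRMT7, which places single methyl groups on arginine, fell by 21% with TMM (-0.34 ± 0.046, adjusted p = 1.3e-06, edgeR) and was at -0.066 with ribosomal protein genes. PRMT3, an enzyme of a ribosomal protein, and PRMT2 fell with TMM, at -0.18 and -0.13, and were at 0.099 and 0.14 with ribosomal protein genes. The PRMT2 call was lost without VPA replicate 3 (adjusted p = 0.067, edgeR). PRMT6, the enzyme of arginine 2 on histone H3, had 1486, 1493 and 1533 untreated and 1642, 1593 and 1559 treated. All treated libraries were higher, but the difference did not pass with TMM (0.088 ± 0.045, adjusted p = 0.090, edgeR), and it did with library totals (0.22), the upper quartile (0.15) and ribosomal protein genes (0.36). The ratio of PRMT1 to PRMT6 counts was 5.38, 5.21 and 4.95 in untreated and 3.31, 3.31 and 3.28 in VPA-treated libraries. PRMT9 was at -0.13 with an adjusted p of 0.11 in edgeR, and passed without untreated replicate 1 (-0.18, adjusted p = 0.033).

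The H3K4 demethylases KDM5A and KDM5B moved apart. KDM5B (chromosome 1, 202724495 to 202808421) had 2095, 2232 and 2233 normalised counts untreated and 2459.9, 2628 and 2628 treated. All treated libraries were higher, and KDM5B rose by 17.6% (0.23 ± 0.044, adjusted p = 9.3e-05, edgeR), under all 5 scalings. It was the single member of the upper class of level that rose with TMM. KDM5A, the higher of the pair per kilobase in untreated cells (159 against 87.8), had 1893, 1946 and 1912 untreated and 1712, 1839 and 1821 treated. All of its treated libraries were lower, but the difference did not pass with TMM (-0.098 ± 0.044, adjusted p = 0.058 in edgeR and 0.059 in DESeq2). KDM5A was called lower without untreated replicate 1 (adjusted p = 0.040, edgeR) and with DESeq2 size factors, and higher, at 0.18, with ribosomal protein genes. The ratio of KDM5B to KDM5A counts was 1.107, 1.147 and 1.168 in untreated libraries and 1.436, 1.429 and 1.443 in VPA-treated ones, with means of 1.141 ± 0.0309 and 1.436 ± 0.0071 (SD, n = 3 each).

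Of the 10 demethylases of H3K9 and H3K36, 5 fell with TMM and 5 did not pass, beside 30% of all genes that fell. KDM2A, KDM2B, KDM3A, KDM3B, KDM4A and KDM4B are in the upper class of level, where 55.9% of all genes fell. The others are in the middle class, where 26.4% fell. The median was -0.19 with TMM and 0.088 with ribosomal protein genes (0.28 over all genes). KDM4A, which removes H3K9 and H3K36 trimethylation, had 2616, 2845 and 2748 untreated and 2028, 2027 and 2119.7 treated. The groups did not overlap, and KDM4A fell by 24.8% (-0.41 ± 0.044, adjusted p = 4.6e-08, edgeR), under all 5 scalings. KDM4A lies over KDM4A-AS1 on the other strand. Its relatives KDM4B, KDM4C and KDM4D did not pass with TMM, at -0.11, 0.12 and 0.17. With ribosomal protein genes KDM4B, KDM4C and KDM4D were called higher, at 0.16, 0.39 and 0.45. KDM4B was called lower without untreated replicate 2 (adjusted p = 0.045, edgeR), untreated replicate 3 (0.039) or VPA replicate 1 (0.028), and KDM4C higher without VPA replicate 1 (0.025).

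KDM2A, an H3K36 demethylase that binds unmethylated CpG islands, had 3228, 3247 and 3249 untreated and 2623, 2645 and 2642 treated. The libraries of each group lay close together (SD of 11.5 and 12.2), and KDM2A fell by 18.7% with TMM (-0.30 ± 0.039, adjusted p = 8.6e-07, edgeR), with -0.023 under ribosomal scaling. KDM2B, its paralog, was lower in all treated libraries but did not pass (-0.070, adjusted p = 0.15, edgeR), and was called higher, at 0.21, with ribosomal protein genes. It lies over RNF34 on the other strand. KDM3B, the highest of the group per kilobase (544 untreated), had 4111, 4392 and 4348 untreated and 3409, 3567 and 3595 treated. KDM3A and KDM3B, both H3K9 demethylases, fell with TMM by 16.5% and 17.7% (-0.26 and -0.28, adjusted p = 1e-04 and 4.1e-06, edgeR) and were at 0.016 and -0.0065 with ribosomal protein genes. KDM8 fell by 22.4% with TMM (-0.37 ± 0.081, adjusted p = 0.00047, edgeR) and was at -0.092 with ribosomal protein genes. KDM7A had overlapping groups (738, 709 and 700.2 untreated; 692, 708 and 742 treated), at -0.0035 with TMM. Of the H3K27 demethylases, KDM6B was tested, with 632, 563 and 524 untreated and 565, 569 and 509 treated. These overlapped (-0.064, adjusted p = 0.44, edgeR), and KDM6B was at 0.067 with library totals and 0.21, called, with ribosomal protein genes.

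The 8 genes that were not tested had few or 0 counts. KDM5C, KDM6A and KDM5D lie on chromosomes X and Y and were listed at 0. PRDM9, which sets recombination sites in meiosis, had raw counts of 5, 4 and 10 untreated and 6, 7 and 3 treated, and PRDM7 had 3, 3 and 5 untreated and 4, 4 and 6 treated. These 2 genes are near-identical copies, so their counts are uncertain. PRDM14, a factor of germ cells, had 0, 0 and 0 untreated and 1, 2 and 0 treated. SMYD1, a gene of heart and skeletal muscle, had 1 count in untreated replicate 3 and 1 in VPA replicate 1. PRMT8, an enzyme of the brain, had 1 count, in VPA replicate 3. At this depth no difference was detectable for PRDM9, PRDM7, PRDM14, SMYD1 and PRMT8. For KDM5C, KDM6A and KDM5D the 0 counts say nothing of their level, since all listed genes of chromosomes X and Y were at 0.

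Partner genes of the same enzymes were read from lists of complex subunits, relatives and suppliers of the methyl donor. Of 50 tested with TMM, 4 rose (8%) and 33 fell (66%), beside 32.9% and 30% of all genes, with a median of -0.22. Most of these partners are in the upper class of level, where 15.6% of all genes rose and 55.9% fell, at a median of -0.14. With ribosomal protein genes 20 rose and 2 fell, where 61.2% of all genes were higher and 5.45% lower. The counts of each list of partners are to be read beside these shares, and no test was made of the difference. WDR5, the shared subunit of the H3K4 methyltransferase complexes, had 3198, 3276 and 3133 normalised counts untreated and 2466, 2447 and 2485 treated. It fell by 23% with TMM (-0.38 ± 0.040, adjusted p = 4.1e-08, edgeR). Of 14 such subunits 8 fell and BOD1L1 rose (0.19), and with ribosomal protein genes 1 fell and 6 rose. Of 7 DOT1L partners and elongation factors 6 fell with TMM, with a median of -0.30, and AFF4 did not pass, where ribosomal protein genes gave 2 that rose and a median of -0.028. Of 7 partners and readers of H3K36 methylation 4 fell with TMM, among them SUPT6H and MORF4L1, and ribosomal protein genes gave 3 that rose. Of 6 partners of PRMT5 and PRMT1, 5 fell with TMM, and ribosomal protein genes gave 2 that rose. WDR77, the obligate partner of PRMT5, was at -0.34 with TMM.

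MAT2A, which makes S-adenosylmethionine, the methyl donor of all these methyltransferases, had 10148, 10356 and 10567 normalised counts untreated and 7532, 7517 and 7418 treated. It fell by 27.7% with TMM (-0.47 ± 0.039, adjusted p = 9.8e-10, edgeR). Of 6 genes for supply and use of this donor 4 fell and AHCYL2 rose (0.23) with TMM, where ribosomal protein genes gave 1 that fell and 2 that rose. Among 10 relatives of the demethylases, 6 fell and 2 rose with TMM, and with ribosomal protein genes 5 rose. The flavin demethylase KDM1B rose by 16.6% (0.22 ± 0.047, adjusted p = 3e-04, edgeR), while KDM1A (LSD1) had overlapping groups. HR, an H3K9 demethylase of the hair follicle, had 7.25, 12.6 and 9.45 untreated and 18.2, 24.1 and 20.1 treated. It was the single partner changed by at least 1.5 times, without overlap (1.08 ± 0.30, adjusted p = 0.0034 in edgeR and 0.057 in DESeq2). HCFC1, MSL3 and PHF8, on chromosome X, and RIOX1 were listed at 0, and NNMT had too few counts.

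**Figure D4:**
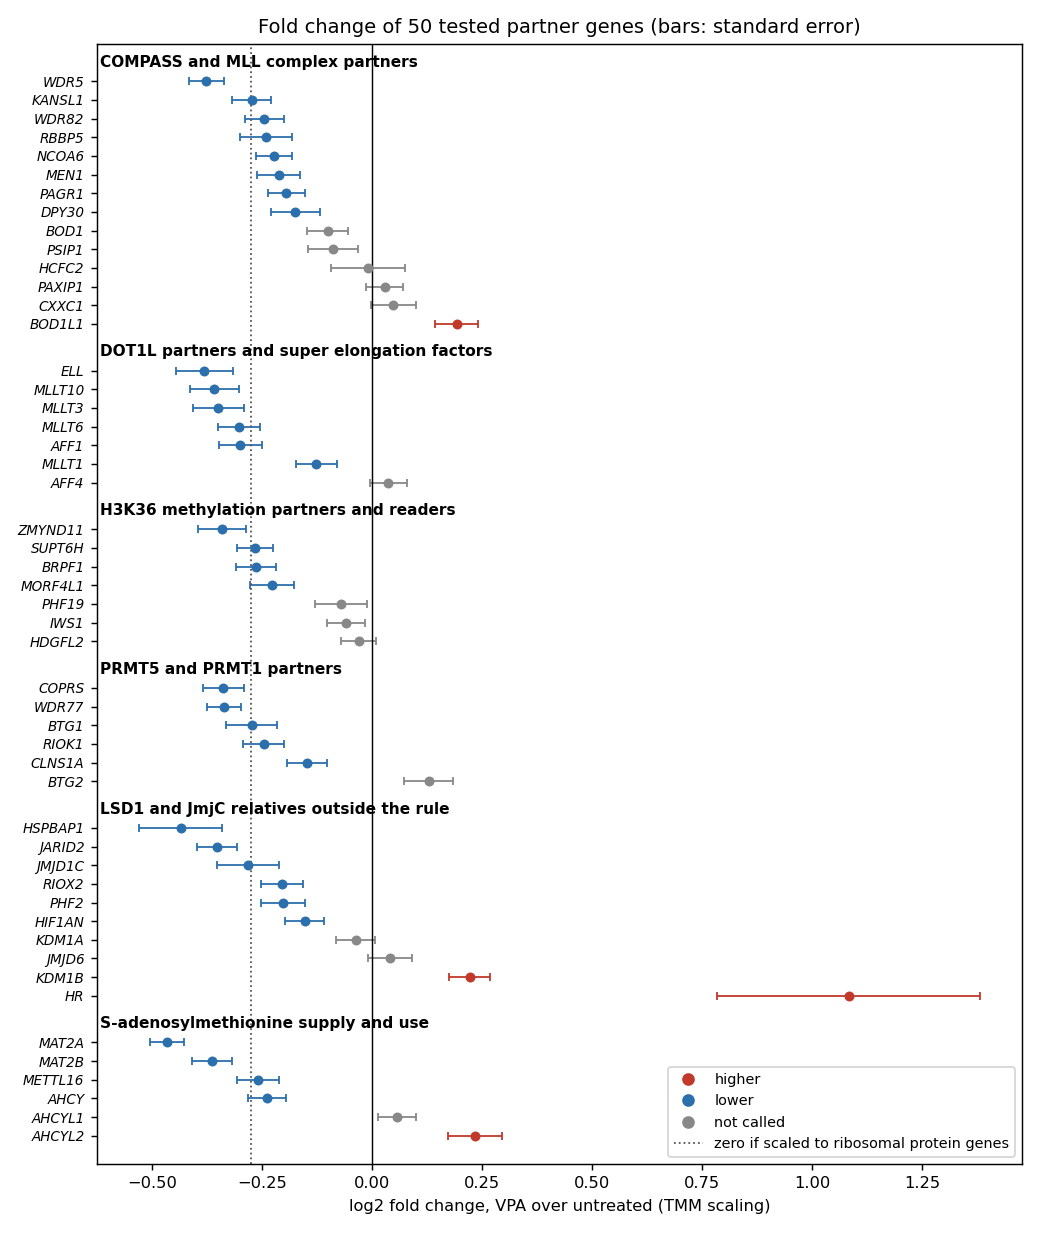
Log2 fold change of VPA-treated over untreated cells (x axis, TMM scaling) for the 50 tested partner genes, grouped by list (y axis), with bars of 1 standard error. With TMM 33 genes are called lower and 4 higher (30% and 32.9% of all tested genes), and HR lies farthest right at 1.08. In the upper class of level, which holds most of these partners, 55.9% of all genes were lower and 15.6% higher. With ribosomal protein genes 2 would be lower and 20 higher (5.45% and 61.2% of all tested genes).

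Across the promoters of the tested genes (the 250 bases before each annotated start, both strands, including exon bases), the GC box GGGCGG was present in 57 of 80 promoters of the 59 genes, or 71.2%, beside 62.3% of 17017 promoters of all tested genes. The genes that fell had it in 42 of 54 promoters and those that rose in 3 of 7. The CCAAT box (CCAAT) was in 36.2% and 32.4%, and the E-box CACGTG in 11.2% and 8.09%. The cAMP response element TGACGTCA and the YY1 motif were in 0 of 80, beside 2.44% and 0.411%, and the NRF1 motif in 1.25%, beside 1.55%. Genes with several annotated starts were counted once per start, and no test was made of these shares.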

How the data were processed

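Counts per gene were deposited for 3 untreated and 3 VPA-treated HEK293T libraries. The authors cleaned reads in SOAPnuke, mapped them on hg38 using STAR (2.7.10b in the submitters' processing notes) and ran htseq-count (HTSeq 2.0.1 there), whose raw counts are the deposited values. Its annotation and use of strand are not given in the sources used here. Not every overlap of a member with another gene is named above. Lines of the counting that name no gene were left out (no feature 6.8% to 7.69%, ambiguous 1.97% to 2.1%, not unique 2.81% to 2.92%). Totals on genes were close (18622267 to 18828495), with a biological coefficient of variation of 3.83%. Errors are wide where counts are few.

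Groups followed the labels. The 15298 genes kept by filterByExpr (minimum count of 10) were fitted with the quasi-likelihood test of edgeR 4.0.16 (R 4.3.3, TMM, robust, condition as the one term), two-sided, with Benjamini-Hochberg adjustment over all of them. Standard errors (SE) are log2 fold changes over the square root of F. An exact permutation test of 3 against 3 libraries cannot give a p below 0.1 and was not used. DESeq2 1.42.0, other scalings, filters and thresholds, a replicate block and fits without 1 library were alternatives. The fit was also run on simulated counts with few changed genes, as many raised as lowered. In the data 62.9% of tested genes changed, so the simulation does not test the choice of scaling. Lengths are merged GENCODE 44 exons, and promoters, coordinates and overlapping genes are from RefSeq (GRCh38.p14).

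Members and lists were chosen with earlier results of these data known. Values are given for genes changed at least 1.5 times, the 10 of smallest adjusted p per direction, the highest per kilobase in each role group, those not tested and those whose call changed under DESeq2 or without 1 library. Partners were named if changed at least 1.5 times or of the smallest adjusted p. Other members and partners in the text, and the pairs of the ratios, were chosen after their values were seen. Some items of the member and marker lists are not reported here by name.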

Additional observations from a re-analysis of the deposited data

How the results depend on the processing

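Among the alternatives run, the number of genes called higher or lower moved most with the scaling. Called higher were 9 with library totals, 8 with the upper quartile and 23 with ribosomal protein genes, and called lower were 24 with library totals and 9 with ribosomal protein genes. Up-regulated were 1 with at least 10 counts required in every library, where PRDM1 was not tested, and 1 with the fold change as part of the test (glmTreat). Partner genes called higher were 11 with library totals, 7 with the upper quartile and 20 with ribosomal protein genes, and called lower 21 with library totals and 2 with ribosomal protein genes. Over all tested genes 43.9%, 38% and 61.2% were higher with library totals, the upper quartile and ribosomal protein genes, and 15.5%, 22.3% and 5.45% lower. The median log2 fold change was -0.20 with DESeq2, -0.19 with DESeq2 size factors, -0.044 with library totals, -0.11 with the upper quartile, 0.099 with ribosomal protein genes, -0.19 without a filter and -0.15 with at least 10 counts in every library. Without 1 library, it ranged from -0.19 to -0.17, the genes called lower from 32 to 39, and those called higher from 5 to 6. Of the 38 genes called lower 31 kept their call in all 6 such fits, as did the 5 called higher.

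Log2 fold changes of opposite sign to that with TMM were as follows. With ribosomal protein genes they were ASH1L 0.23, ASH2L 0.15, KDM2B 0.21, KDM3A 0.016, KDM4B 0.16, KDM5A 0.18, KDM6B 0.21, KDM7A 0.27, KMT2C 0.24, KMT2E 0.045, KMT5B 0.0062, NSD1 0.11, NSD2 0.16, NSD3 0.17, PRDM13 0.13, PRDM2 0.10, PRDM6 0.10, PRMT2 0.14, PRMT3 0.099, PRMT9 0.15, SETD2 0.034, SETD3 0.13, SETD4 0.098, SETD7 0.061 and SMYD4 0.096. With library totals they were ASH1L 0.082, ASH2L 0.011, KDM2B 0.062, KDM4B 0.017, KDM5A 0.034, KDM6B 0.067, KDM7A 0.13, KMT2C 0.099, NSD2 0.016, NSD3 0.030, PRMT2 0.0012 and PRMT9 0.0025. With the upper quartile they were ASH1L 0.016, KDM6B 0.00081, KDM7A 0.062 and KMT2C 0.033. The sign of KMT2A also turned with DESeq2 (-0.022), DESeq2 size factors (-0.012) and no filter (-0.019), and that of KDM7A with at least 10 counts in every library (0.019). Without 1 library, signs turned for genes near 0 that were not called, namely KDM6B (-0.13 to 0.0055), KDM7A (-0.033 to 0.018), KMT2A (-0.020 to 0.023) and KMT5C (-0.050 to 0.11). Apart from the construction of each scaling, which shifts all genes together, the cause was not tested.

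Same-numbered libraries of the groups had correlations of deviations of 0.14, 0.021 and 0.080, and other-numbered ones from -0.11 to 0.031. The numbers were not taken as pairs in the main fit, and whether libraries of 1 number shared a batch was not tested. With the replicate block 6 genes were called higher and 40 lower, and 5 and 35 partner genes, with KDM4B, KDM5A and PRMT6 as the added calls among the 59.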
